A study of Mus musculus with 6 samples.

Results

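This account covers 63 mouse genes out of 31276 gene symbols in the count table. Most have products that build or regulate the spliceosome or deliver its Sm proteins. Some act in other complexes, and Hnrnpa1l2 is annotated as a processed pseudogene. All were picked by gene symbol: 12 genes beginning with Snrp (Sm and other small nuclear ribonucleoprotein proteins), 13 Lsm genes (Sm-like proteins), 11 Srsf genes (SR proteins) and 21 Hnrnp genes. To these were added 6 genes of the route that methylates and loads Sm proteins, Wdr77, Clns1a, Riok1, Coprs, Smn1 and Gemin2. Brain mRNA of C57BL/6 mice at postnatal day 14 was sequenced in 3 KO and 3 WT libraries. The KO group is labelled as a PRMT5 olig2cre knockout and the WT group as wild-type. By its name, Cre is driven by Olig2 and acts in cells that express or have expressed Olig2, mainly of the oligodendrocyte lineage, while other brain cells keep the gene. The labels do not say whether WT mice carried Cre or a floxed allele, or whether the replicates of a group came from separate animals, so each p-value below describes only the spread among these libraries. In such bulk tissue, fewer cells of a type and less RNA per cell cannot be told apart.

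PRMT5 is the main enzyme that places symmetric dimethyl marks on arginine, and Sm proteins are among its best known substrates. The adaptor pICln, the product of Clns1a, brings newly made Sm proteins to PRMT5 and its partner WDR77, and arginines of Arg-Gly repeats in their tails are methylated. The SMN complex, which holds SMN and Gemin2, prefers methylated tails and closes the Sm ring around small nuclear RNA. SR proteins and hnRNP proteins then bind pre-mRNA and steer the choice of exons, and several of them carry Arg-Gly repeats too. Loss of PRMT5 is known to impair splicing in neural progenitors. The comparison asks whether transcript levels of this machinery differ in KO brain. Splice forms and protein methylation were not measured in these gene-level counts.

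The Arg-Gly repeats that PRMT5 acts on are shown first as coding sequence, because they set the known substrates apart from their ring partners. Each stretch was read from GENCODE M21 transcripts (mm10), 5′ to 3′ on the sense strand, and runs from the first codon pair for Arg-Gly after codon 90 to the last one that fits in 300 bases. Capitals mark those codon pairs.
Snrpd3: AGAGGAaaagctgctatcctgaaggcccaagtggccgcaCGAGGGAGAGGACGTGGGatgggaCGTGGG
Lsm4: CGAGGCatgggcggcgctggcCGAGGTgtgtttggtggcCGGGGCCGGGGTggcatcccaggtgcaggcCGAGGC
Snrpb: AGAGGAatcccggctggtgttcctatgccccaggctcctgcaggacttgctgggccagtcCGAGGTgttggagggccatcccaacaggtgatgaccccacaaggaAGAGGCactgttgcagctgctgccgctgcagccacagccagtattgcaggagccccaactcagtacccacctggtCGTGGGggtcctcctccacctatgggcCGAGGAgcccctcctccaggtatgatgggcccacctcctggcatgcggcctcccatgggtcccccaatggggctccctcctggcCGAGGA
Snrpn: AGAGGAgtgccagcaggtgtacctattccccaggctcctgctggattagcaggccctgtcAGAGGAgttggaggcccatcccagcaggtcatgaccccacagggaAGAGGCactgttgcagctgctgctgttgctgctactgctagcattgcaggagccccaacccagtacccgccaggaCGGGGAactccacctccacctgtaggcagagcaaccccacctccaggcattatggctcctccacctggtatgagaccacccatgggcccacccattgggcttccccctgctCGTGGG
The Snrpd3 and Lsm4 stretches each hold 5 pairs, in 69 and 75 bases. Snrpb and Snrpn, which encode alternative proteins for the same place in the ring, hold 6 and 5 pairs in the 297 bases shown for each, and their whole coding sequences share 80.5% of 696 aligned bases. Snrpd1 has 9 pairs close together between codons 98 and 115. The ring genes Snrpd2, Snrpe and Snrpf have 1 pair each and Snrpg has 2. Among the hnRNP genes, Hnrnpr has 24 pairs and Hnrnpu 20.

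The targeted gene, Prmt5, stood at 68.2, 68.4 and 81.6 CPM (counts scaled to library size and composition) in KO replicates 1 to 3, against 90.8, 90.4 and 91.8 CPM in WT replicates 1 to 3. The groups did not overlap, and the log2 fold change of KO over WT was -0.32 (SE 0.0950). The quasi-likelihood test of edgeR, Benjamini-Hochberg adjusted over all genes, gave an adjusted p of 0.232, and one of 0.0379 once replicate number was added as a block. Exons outside the deleted part still yield reads, and cells without Cre keep the gene, so this level checks the labels only in part.

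None of the selected genes was called as different between KO and WT brain. Of 62 members that passed the filter on low counts, 0 had an adjusted p under 0.05 in edgeR, whereas 199 of 16592 genes tested did (1.20%), 40 higher (0.241%) and 159 lower (0.958%). DESeq2 called 0 members as well, against 1.89% of all genes, and edgeR with the replicate block 0, against 566 genes or 3.41%. A share of 0 in 62 is near these backgrounds. At an unadjusted p under 0.05, edgeR listed 2 members, Hnrnph1 and Smn1 (3.23%, against 9.67% of all genes), both higher (4.40% of all genes), and DESeq2 listed Hnrnph1. With the replicate block 6 members had an unadjusted p under 0.05 (15.9% of all genes), and with offsets adjusted for exonic length 1 had, Hnrnpd (9.23% of all genes). The member that failed the filter, Lsm5, a subunit of both LSm rings, had 10, 8 and 8 counts in KO replicates 1 to 3 and 13, 7 and 8 counts in WT replicates 1 to 3. Near-identical sequence is annotated in 2 other genes for Lsm5, so its counts are uncertain.

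The intervals bound how large a difference in the level of the brain tissue as a whole could be. Levels within the cells where Cre acted were not measured, and differences there could be larger. For 56 of 62 members (90.3%) the 95% interval of the KO over WT fold lay within 1.5-fold either way, as it did for 60.0% of all genes tested. Intervals tend to be narrower for genes with more counts, and the share among genes of like counts was not computed. The exceptions were Coprs, Snrpf, Snrpg, Lsm7, Lsm10 and Hnrnpa1l2. Members' log2 fold changes had a median of 0.09, beside 0.01 for all genes tested, and apart from Hnrnpa1l2 no value exceeded 0.37 in size. Of the 62 values 48 were positive (77.4%, against 52.3% of all genes).

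**Figure D1:**
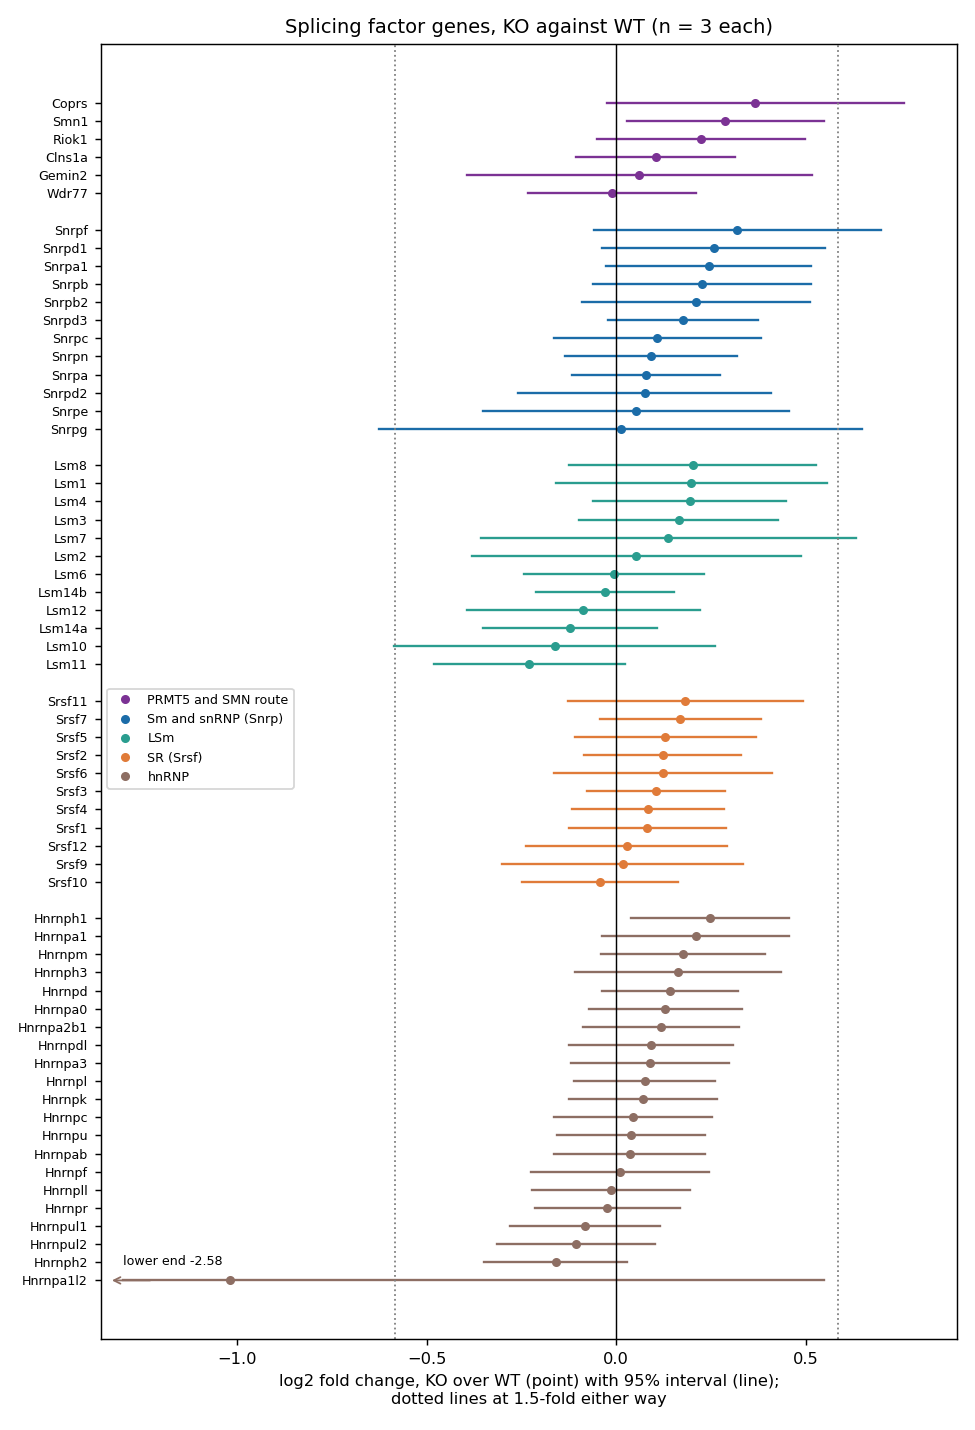
Log2 fold change of KO over WT for the 62 tested members, by family, with 3 libraries per group. Points are edgeR estimates, lines are 95% intervals, and dotted lines mark 1.5-fold either way. The lines of 56 genes stay between the dotted lines, and only those of Smn1 and Hnrnph1 exclude 0 (unadjusted). The interval of Hnrnpa1l2 runs off the axis to -2.58.

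None of the 4 PRMT5 cofactor genes was called, near the share of 1.20% of all genes. Wdr77 (3:105959369-105970037, plus strand, mm10), whose product forms the active complex with PRMT5, stood at 49.2, 58.3 and 58.1 CPM in KO replicates 1 to 3, against 53.1, 54.5 and 59.3 CPM in WT replicates 1 to 3. The groups overlapped throughout, with a fold of 0.992 (95% interval 0.851 to 1.157). Exons of Wdr77 overlap Atp5f1 on the other strand, and the strand setting of the counting is not given in the sources used here. Clns1a, the Sm adaptor gene, had 50.2, 48.2 and 55.2 CPM in KO and 47.0, 50.0 and 45.9 CPM in WT replicates, also overlapping (1.08-fold, 0.929 to 1.244). Riok1 encodes the adaptor that competes with pICln for PRMT5 and brings other substrates. Its values were 17.4, 16.2 and 17.6 CPM in KO and 15.3, 14.6 and 13.96 CPM in WT replicates. Each KO value of Riok1 lay above all WT values, at 1.17-fold (0.965 to 1.411, edgeR adjusted p = 0.601). Exons of Riok1 overlap Cage1 on the other strand.

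Coprs, which encodes a partner that links PRMT5 to histones, had the highest fold change of any member. It stood at 21.6, 16.6 and 20.5 CPM in KO replicates and 19.1, 12.6 and 13.8 CPM in WT replicates. The groups overlapped because WT replicate 1 exceeded KO replicate 2, and the fold was 1.29 (0.984 to 1.691, edgeR adjusted p = 0.541). In each same-numbered pair the KO library was higher, and with the replicate block the edgeR adjusted p was 0.152. Coprs has 905 exonic bases, and its log2 fold change of 0.37 was 0.23 with length-adjusted offsets. It was 0.57 without WT replicate 1 and 0.25 without WT replicate 2.

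Smn1 (13:100124852-100137690, plus strand, mm10), the SMN gene, varied little among KO libraries. Its values were 21.7, 21.3 and 21.0 CPM in KO replicates 1 to 3, against 17.1, 18.5 and 16.8 CPM in WT replicates 1 to 3. The groups did not overlap, and the fold was 1.22 (1.020 to 1.461), with an unadjusted p of 0.0329 in edgeR (adjusted p = 0.449). Smn1 transcripts are short, at 1222 exonic bases, and with offsets adjusted for exonic length its log2 fold change was 0.18 instead of 0.29 (edgeR adjusted p = 0.741). Gemin2, whose product clasps the incomplete Sm ring, was scarce at 4.26, 4.66 and 4.83 CPM in KO and 4.19, 3.92 and 5.05 CPM in WT replicates, with overlapping groups.

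Genes of the Sm ring were measured at very unequal levels, with Snrpn far above the rest. Per kilobase of exon, Snrpn, the imprinted paralog that replaces Snrpb in neurons, had 542.2 ± 43.9 RPKM in KO and 508.6 ± 33.6 RPKM in WT (SD, n = 3 each). Snrpb had 37.0 ± 6.56 RPKM in KO and 31.6 ± 1.81 RPKM in WT (SD, n = 3 each). The ratio of Snrpn to Snrpb was 14.7 in KO and 16.1 in WT. The other ring genes followed at 23.0 ± 2.65 RPKM in KO and 19.3 ± 2.29 RPKM in WT for Snrpd1 (SD, n = 3 each), down to 2.35 ± 0.622 RPKM in KO and 2.33 ± 0.304 RPKM in WT for Snrpg (SD, n = 3 each). Between these, Snrpd1, Snrpd2 and Snrpd3 lay within each other's spread, with Snrpf and then Snrpe below them. All ring genes except Snrpb and Snrpd3 have sequence of at least 95% identity over 200 bases or more in another annotated gene. The handling of reads that map to several places is not given, so the levels of those genes, Snrpg among them, are uncertain.

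**Figure D2:**
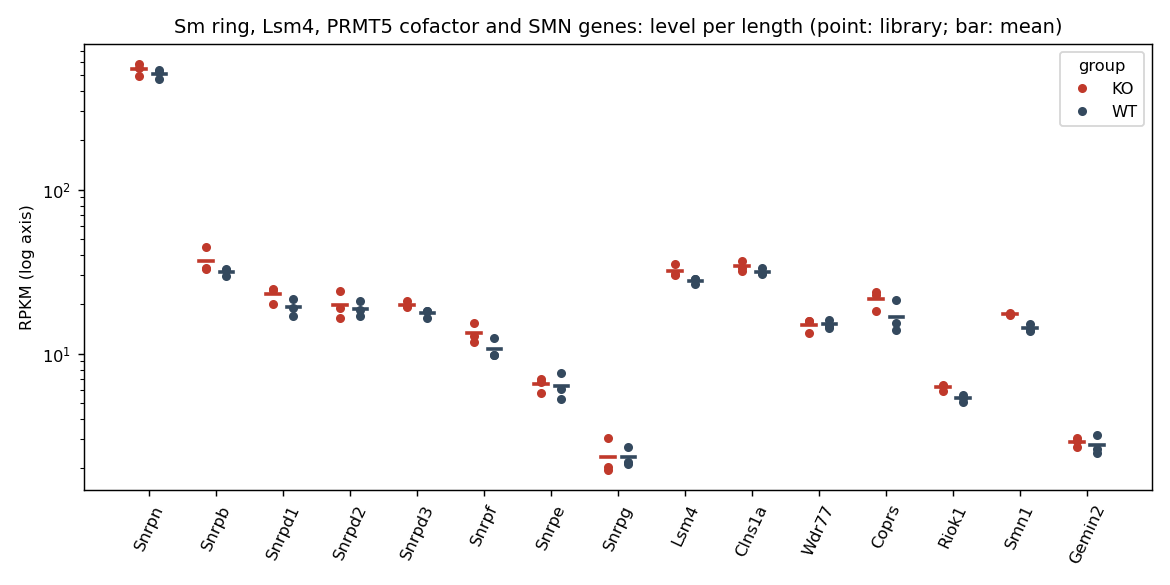
Level per exonic length (RPKM, log axis) of the Sm ring genes, Lsm4, the PRMT5 cofactor genes, Smn1 and Gemin2, with KO at the left and WT at the right of each pair. Points are libraries and bars are group means. Snrpn averages 542.2 RPKM in KO and 508.6 in WT, Snrpg 2.35 in KO and 2.33 in WT, while KO and WT points of a gene lie close together.

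Reads of Snrpn could not be separated from those of Snurf, which shares its transcript. Both rows hold nearly the same counts (17578 and 17578 in KO replicate 1, and at most 52 counts apart in any library). The level of Snrpn is therefore that of the joint transcript. Its values were 1069, 1186 and 1257 CPM in KO replicates 1 to 3, against 1016, 1154 and 1125 CPM in WT replicates 1 to 3. The groups overlapped, and each KO library was above its same-numbered WT library (1.07-fold, 0.911 to 1.247).

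The ring genes with Arg-Gly tails had slightly higher KO values, none of them called, and the ring genes without tails did not stand apart. All 8 ring genes had positive log2 fold changes (52.3% of all genes had). Those with tails had 0.18 (Snrpd3), 0.26 (Snrpd1), 0.23 (Snrpb) and 0.09 (Snrpn). Those without had 0.32 (Snrpf), 0.08 (Snrpd2), 0.05 (Snrpe) and 0.01 (Snrpg). Snrpd3, encoding SmD3, stood at 58.4, 59.4 and 63.7 CPM in KO replicates 1 to 3 and 50.2, 55.1 and 55.3 CPM in WT replicates 1 to 3. All KO values were above all WT values, at 1.13-fold (0.986 to 1.296, edgeR adjusted p = 0.560). Exons of Snrpd3 overlap Gucd1 on the other strand. Snrpd1, encoding SmD1, had 27.9, 34.5 and 34.0 CPM in KO and 26.6, 23.8 and 30.1 CPM in WT replicates. Here WT replicate 3 exceeded KO replicate 1, and the fold was 1.195 (0.974 to 1.466). With length-adjusted offsets the log2 fold change of Snrpd3 (3036 exonic bases) was 0.15 in place of 0.18. That of Snrpd1 (1393 exonic bases) was 0.15 in place of 0.26.

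Snrpb, encoding SmB, turned on KO replicate 3. It had 38.4, 38.7 and 51.7 CPM in KO replicates 1 to 3, against 38.3, 37.4 and 34.3 CPM in WT replicates 1 to 3. KO replicates 1 and 2 were barely above the highest WT value, and the fold was 1.17 (0.959 to 1.428, edgeR adjusted p = 0.611). Without KO replicate 3 its log2 fold change was 0.07 in place of 0.23. Lsm4, the Sm-like gene with a PRMT5-methylated tail, had 28.3, 28.7 and 33.2 CPM in KO and 27.1, 25.0 and 26.8 CPM in WT replicates. As for Snrpb, all KO values of Lsm4 were above all WT values, with KO replicate 3 highest (1.14-fold, 0.958 to 1.365). Both genes are short, with 1161 exonic bases for Snrpb and 945 for Lsm4. With length-adjusted offsets the log2 fold change was 0.10 in place of 0.23 for Snrpb and 0.05 in place of 0.19 for Lsm4.

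Members were also divided by the number of Arg-Gly pairs in their coding sequence. The 27 tested members with 5 or more pairs had a median log2 fold change of 0.09, and so did the 34 with fewer, at 0.09. With length-adjusted offsets the medians were 0.08 for 5 or more pairs and 0.02 for fewer, and the difference was not tested. No member of either set was called (background 1.20%).

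All 12 Snrp genes had positive log2 fold changes (52.3% of all genes had), from 0.01 for Snrpg to 0.32 for Snrpf, with a median of 0.14. With length-adjusted offsets 8 of 12 were positive (50.5% of all genes). Snrpf encodes a ring subunit without a repeat tail, and its values were 10.1, 11.1 and 13.2 CPM in KO and 10.7, 8.45 and 8.42 CPM in WT replicates. WT replicate 1 lay within the KO range of Snrpf, and the interval of the fold was wide (0.960 to 1.621). Snrpf has 861 exonic bases, and its log2 fold change was 0.17 with length-adjusted offsets. Its exons overlap Ccdc38 and 4933408J17Rik on the other strand. Snrpa1, encoding a protein of the U2 particle, had 18.8, 21.1 and 20.7 CPM in KO and 16.5, 18.05 and 16.7 CPM in WT replicates. Its groups did not overlap (1.18-fold, 0.982 to 1.427, edgeR adjusted p = 0.556, the smallest of the Snrp genes). Snrpe, also a ring subunit gene, had 9.67, 9.26 and 7.94 CPM in KO and 7.25, 10.4 and 8.30 CPM in WT replicates. Snrpg, with the fewest counts of the ring genes, had 2.07, 2.14 and 3.24 CPM in KO and 2.25, 2.298 and 2.83 CPM in WT replicates. Both overlapped between groups.

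Of the LSm genes, those of the rings lay near or above 0 and the others below it. The ring genes Lsm1 to Lsm8, without Lsm5, had a median log2 fold change of 0.16, with 6 of 7 positive (52.3% of all genes were). They are short, with a median of 1108 exonic bases. With length-adjusted offsets their median was 0.02, again with 6 of 7 positive. Lsm8, which places the ring on U6 RNA in the nucleus, had 12.2, 13.4 and 14.99 CPM in KO and 12.6, 10.5 and 12.1 CPM in WT replicates. Lsm1, its counterpart in the ring that triggers decapping in the cytoplasm, had 18.1, 19.5 and 22.9 CPM in KO and 15.1, 16.1 and 21.5 CPM in WT replicates. Both overlapped between groups, and both were highest in KO replicate 3.

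Lsm10, Lsm11, Lsm12, Lsm14a and Lsm14b all had negative values, with a median of -0.12 and none called. With length-adjusted offsets the median of these 5 genes was -0.15, and 0 of them were positive. Lsm10 and Lsm11 take the place of SmD1 and SmD2 in the U7 particle, which trims histone mRNA. Lsm11 had 97.8, 74.0 and 92.2 CPM in KO replicates 1 to 3, against 109.1, 105.8 and 94.6 CPM in WT replicates 1 to 3. KO replicate 1 exceeded WT replicate 3, and the log2 fold change was -0.23 (SE 0.114, edgeR adjusted p = 0.553). Without KO replicate 2 it was -0.12. With a term for cerebellar transcripts and the replicate block together, Lsm11 was the only member called (log2 fold change -0.33, edgeR adjusted p = 0.0238), where 3.22% of all genes were. Only 1 pair differs in cerebellar transcripts, so that fit rests on the other 2 pairs. Lsm10 had 4.74, 5.29 and 5.78 CPM in KO and 6.12, 6.42 and 5.17 CPM in WT replicates, with overlap.

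No SR protein gene was called (1.20% of all genes were), and KO replicate 2 was the highest library for 6 of 11 (19.1% of all genes). Of 11 tested, 10 had positive values (52.3% of all genes had), from 0.02 to 0.18, and Srsf10 had -0.04. Srsf11, an SR-related gene, had 163.6, 214.6 and 140.9 CPM in KO replicates 1 to 3, against 141.7, 164.4 and 151.3 CPM in WT replicates 1 to 3. KO replicate 2 was the highest and KO replicate 3 the lowest of all 6 libraries. Without KO replicate 2 the log2 fold change of Srsf11 was -0.0028 in place of 0.18. Srsf7, which also takes part in mRNA export, had 89.8, 106.0 and 86.7 CPM in KO and 85.3, 83.7 and 82.3 CPM in WT replicates. Its groups did not overlap (1.12-fold, 0.970 to 1.302, edgeR adjusted p = 0.609), and without KO replicate 2 its log2 fold change was 0.07 in place of 0.17.

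Srsf2, an activator of exon inclusion, had 115.7, 125.4 and 107.2 CPM in KO and 114.6, 106.2 and 99.2 CPM in WT replicates. Srsf9 had 22.4, 29.5 and 32.0 CPM in KO and 25.8, 29.5 and 27.6 CPM in WT replicates. Srsf10, whose product represses splicing when it loses phosphate, had 52.8, 53.6 and 57.7 CPM in KO and 60.8, 55.4 and 53.0 CPM in WT replicates. All 3 genes overlapped between groups. Transcripts of Mettl23 and Mfsd11 hold sequence of at least 95% identity to Srsf2 over 200 bases or more, so its counts are uncertain.

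Among the hnRNP genes, Hnrnph1 had the smallest p of any member. Hnrnph1 (11:50376990-50386528, plus strand, mm10), whose product binds runs of G, stood at 218.5, 241.4 and 211.0 CPM in KO replicates 1 to 3, against 201.9, 184.1 and 179.0 CPM in WT replicates 1 to 3. Every KO value was above every WT value, at 1.19-fold (1.027 to 1.373). In edgeR its unadjusted p was 0.0243 and its adjusted p 0.414, or 0.129 with the replicate block. Hnrnpa1, a classical repressor of exon inclusion, had 57.5, 73.7 and 59.0 CPM in KO and 58.6, 54.2 and 51.7 CPM in WT replicates. KO replicate 2 stood alone, and KO replicate 1 was below WT replicate 1. Without KO replicate 2 the log2 fold change of Hnrnpa1 was 0.09 in place of 0.21. Sequence of at least 95% identity over 200 bases or more is annotated in 9 other genes for Hnrnpa1, so its counts are uncertain.

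Hnrnph2, the X-linked relative of Hnrnph1, had 111.5, 109.9 and 121.4 CPM in KO and 121.2, 128.1 and 133.7 CPM in WT replicates. KO replicate 3 just exceeded WT replicate 1, and the log2 fold change was -0.16 (SE 0.0859, edgeR adjusted p = 0.584). Hnrnpa1l2, annotated as a processed pseudogene, had 12, 2 and 2 counts in KO and 14, 12 and 6 counts in WT replicates, and gave the only fold change beyond 0.37 in size, at -1.02 (SE 0.709). It was -2.35 without KO replicate 1 and -0.64 without KO replicate 2. The other 17 hnRNP genes had log2 fold changes from -0.11 to 0.18, with none called. Per length, Hnrnpa2b1, which also carries mRNA along processes, led the family at 200.8 ± 13.6 RPKM in KO and 185.0 ± 6.45 RPKM in WT (SD, n = 3 each).

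Where the groups did not overlap, KO was the higher one. In 11 of 62 members every KO library was above every WT library (17.7%, against 8.02% of all genes), and in 0 every KO library was below (7.99% of all genes). The 11 were Snrpb, Snrpd3, Snrpa1, Lsm4, Srsf3, Srsf7, Hnrnpd, Hnrnph1, Hnrnpm, Riok1 and Smn1. Of these, Snrpd3 and Riok1 overlap genes on the other strand, and Hnrnpm overlaps March2 on the same strand. With values adjusted for exonic length the count was 6 upward (9.68%, against 6.70%) and 1 downward (7.95% of all genes). Hnrnpd, Snrpa1, Snrpd3, Riok1 and Smn1 were in both upward sets, Hnrnpa3 was added, and the downward gene was Lsm10.

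Exonic length moved with these values. Across all 15255 tested genes with an annotated length, shorter genes had higher KO over WT values (Spearman correlation -0.32), and across the 62 members the correlation was -0.40. These are descriptions across genes of the same 6 libraries. Members under 1500 bases had a median log2 fold change of 0.15, where all genes of that length had 0.13, and members of 1500 to under 2500 bases had 0.11, where all genes had 0.07. Members of 2500 to under 4000 bases had 0.08 against 0.02, and those of 4000 bases and over had 0.04 against -0.06.

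**Figure D3:**
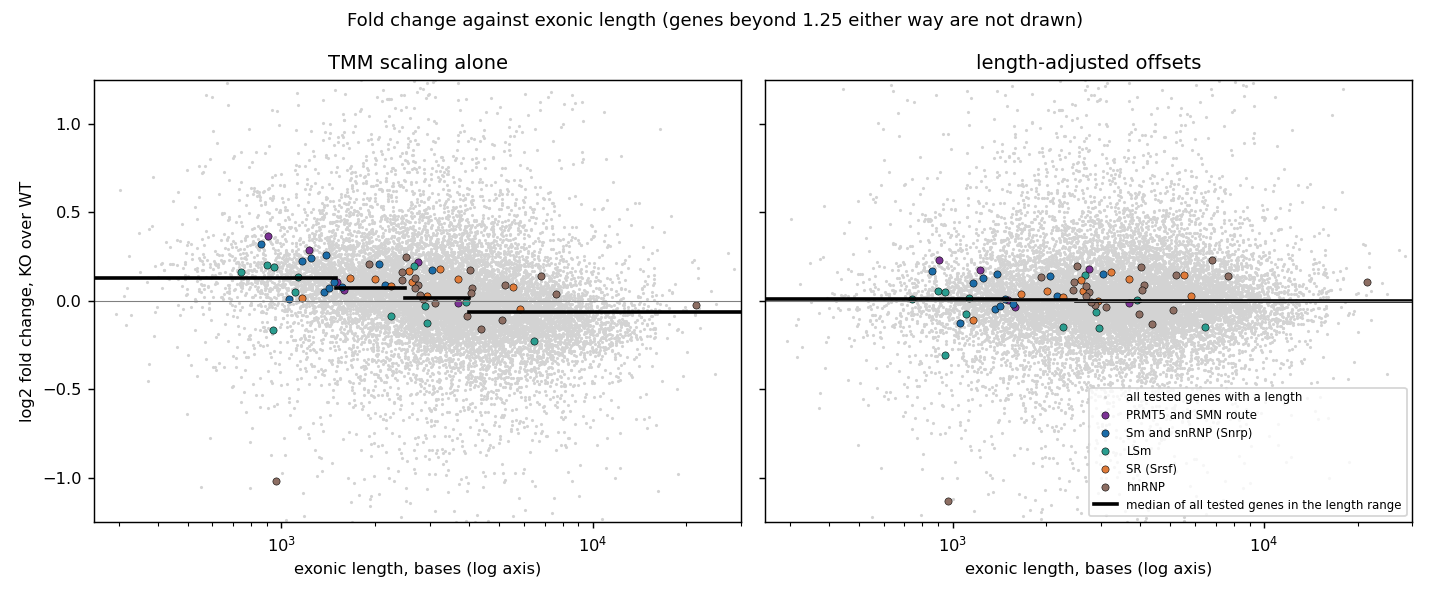
Log2 fold change of KO over WT against exonic length (log axis), with TMM scaling alone at the left and length-adjusted offsets at the right. Grey points are all tested genes with a length, coloured points are members, and black lines are medians of all genes in 4 length ranges. At the left the black lines step down from 0.13 to -0.06, and at the right they are level near 0.

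After the length adjustment the Snrp genes had a median of 0.06 in place of 0.14, with 8 of 12 positive. SR genes had 0.05 in place of 0.10, and the 6 genes of the PRMT5 and SMN route 0.09 in place of 0.16. The hnRNP genes, which are longer, had 0.06 in place of 0.07. The LSm genes had -0.03 in place of 0.02, with 6 of 12 positive in both. All members had a median of 0.04 with 41 positive (66.1%, against 50.5% of all genes), and their correlation with length became 0.12. No member was called in that fit, alone or with the replicate block.

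The libraries did not contribute equally. KO replicate 3 was the highest of the 6 libraries for 22 of 62 members (35.5%, against 22.1% of all genes) and for 9 of 12 Snrp genes. KO replicate 2 was the highest for 16 members (25.8%, against 19.1%), among them the 6 SR genes above and 7 of 21 hnRNP genes. The median deviation of the Snrp genes from their mean over all libraries was -0.06, 0.07 and 0.20 in KO replicates 1 to 3 on the log2 scale. In WT replicates 1 to 3 it was -0.12, -0.04 and -0.06, so KO replicate 1 lay at the WT level. For the SR genes it was 0.02, 0.18 and -0.01 in KO and -0.06, 0.00 and -0.09 in WT replicates. The correlation of such deviations with exonic length over all genes was 0.23, -0.18 and -0.46 in KO replicates 1 to 3, against 0.26, 0.13 and 0.14 in WT replicates 1 to 3. The part of this trend in the members' values beyond the length adjustment was not tested.

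**Figure D4:**
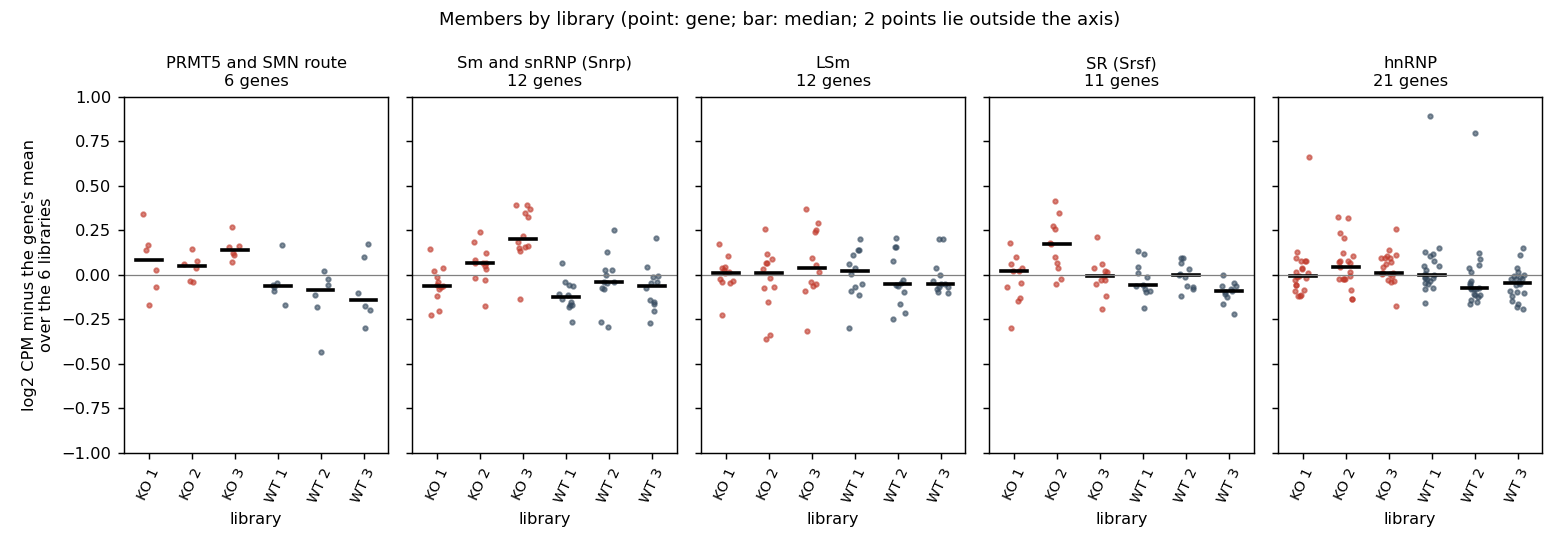
Deviation of each tested member from its own mean over the 6 libraries (log2 CPM), by family, with KO libraries at the left and WT libraries at the right. Points are genes, bars are medians, and 2 points of Hnrnpa1l2 lie outside the axis. Snrp genes are highest in KO 3 (median 0.20) and SR genes in KO 2 (median 0.18).

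Libraries also differed in sex and in cerebellar transcripts. Xist, transcribed in females, was high (509.1 to 634.0 CPM) in KO replicates 1 and 2 and WT replicate 2 and under 1 CPM in the others. Gabra6, a cerebellar granule cell gene, stood at 80.0, 0 and 22.1 CPM in KO replicates 1 to 3 and at 63.8, 0 and 0 CPM in WT replicates 1 to 3. Among libraries with these transcripts (KO replicates 1 and 3 against WT replicate 1), the SR genes had a median log2 fold change of 0.04 and the Snrp genes 0.23. Among those without (KO replicate 2 against WT replicates 2 and 3), the SR genes had 0.21 and the Snrp genes 0.09. Each subset has an arm of 1 library, so these medians describe those libraries, and the difference between the subsets was not tested. Summed oligodendrocyte markers (8 genes, all called lower) ran from 906.3 to 1911 CPM in KO and from 7473 to 10140 CPM in WT. Meningeal fibroblast markers (5 genes, 4 called higher) ran from 197.3 to 290.2 CPM in KO and from 110.3 to 118.3 CPM in WT. Proliferation markers (6 genes, none called) ran from 58.9 to 80.3 CPM in KO and from 41.3 to 58.4 CPM in WT, also without overlap. Neuron markers overlapped, with sums of 5698 to 6239 CPM in KO and 5519 to 6278 CPM in WT. Summed markers of astrocytes, microglia, endothelial cells, blood cells and cerebellar granule cells overlapped between groups too. The part of the marker shifts in the members' values was not tested.

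Other genes of the same machinery gave no calls in the first 4 lists below. For lists of this size that is near the 1.20% of all genes called. Of 26 other proteins of spliceosomal particles 0 were called, with a median of 0.08 and 19 positive (52.3% of all genes were). Phf5a, a subunit that grips the branch point in the U2 particle, had their smallest p, at 17.9 ± 2.51 CPM in KO and 14.4 ± 1.82 CPM in WT (SD, n = 3 each; edgeR adjusted p = 0.546). Of 8 other SMN complex and Cajal body genes 0 were called (median 0.15), and the helicase gene Ddx20 had their smallest p (log2 fold change 0.24, SE 0.152). Of 8 arginine methyltransferase genes 0 were called (median 0.05), and Prmt5 was the only one with an unadjusted p under 0.05. Of 13 SR-related and kinase genes 0 were called without the block. Srpk3, an SR protein kinase gene, had a log2 fold change of -0.99 (SE 0.332) (edgeR adjusted p = 0.319, or 0.0254 under the replicate block).

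Among 24 other RNA-binding regulators of splicing, 1 fell (0.958% of all genes did). Qk encodes Quaking, which binds myelin transcripts and is needed for their splicing and export in oligodendrocytes. It averaged 238.6 ± 24.3 CPM in KO and 379.7 ± 20.9 CPM in WT (SD, n = 3 each), a log2 fold change of -0.67 (SE 0.102) for which edgeR gave an adjusted p of 0.00787, or 0.0150 under length-adjusted offsets. All KO libraries were below all WT libraries, in the direction of the oligodendrocyte markers above. Cirbp, a cold-inducible RNA-binding protein gene, had 62.7 ± 9.43 CPM in KO and 48.4 ± 1.06 CPM in WT (SD, n = 3 each), and an edgeR adjusted p of 0.245 (0.0338 under the replicate block). The list as a whole had a median of 0.02, and 14 of its 24 genes were positive (52.3% of all genes were).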

How the data were processed

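Per the labels' protocols, brain RNA was extracted with Trizol and sequenced as Illumina TruSeq mRNA libraries. The build was mm10, and the tools named are STAR 2.3.0e, Trimmomatic 0.32, FastQC 0.11.2, DESeq2 and featureCounts 1.5.0, per the submitters' processing notes. The strand setting and the handling of reads that map to several places are not given in the sources used here. The values used are the whole-number read counts per gene that the authors deposited, with totals of 15089140 to 16365802 in KO and 15219817 to 16872925 in WT. The deposited normalized table was not used.

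Counts were filtered with filterByExpr, scaled with TMM and tested with edgeR 4.0.16 (quasi-likelihood, R 4.3.3) without covariates, with Benjamini-Hochberg adjustment over 16592 genes and a threshold of 0.05. CPM, RPKM and 95% intervals of the fold were computed here. They rest on 3 libraries per group. Exonic length is the union of exons of GENCODE M21 basic transcripts, found for 23577 symbols and all 63 members. RPKM depends on that choice. Length adjustment used loess offsets per library (span 0.5). The alternatives were other scalings and filters, DESeq2 1.42.0, limma-voom (limma 3.58.1), length offsets, a cerebellum term (libraries with Gabra6 over 5 CPM), and leaving out each library. A sex term and the fits within libraries with or without cerebellar transcripts were added after seeing the data. The fits were tested on simulated data with larger changes than members other than Hnrnpa1l2 had, and with less spread between libraries than these data. That test does not show how well differences of the members' size would be found. Near-identical sequence was sought with blastn at 95% identity over 200 bases, and 29 members had such sequence in another annotated gene. Genes that share exons with a member at the same place were not left out of this count, such as Snurf for Snrpn, March2 for Hnrnpm and Ccdc38 for Snrpf.

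Replicate numbers are shared by the groups. Deviations from group means correlated at 0.351, 0.334 and 0.177 between same-numbered libraries, all above 0.1, so the numbers were taken as pairs (KO replicate 2 also correlated at 0.100 with WT replicate 3, and over the members alone at 0.345 with it against 0.0997 with WT replicate 2), on the data alone, since the labels say nothing of it. For genes described singly, the replicate block is given where it changed a call. It is also given for Coprs and Hnrnph1, where it did not. Values in every library are given for the route genes, the known substrates and Snrpn, and in each family for the 2 highest and 2 lowest fold changes and the 2 smallest p. Other genes named, among them Lsm5, Hnrnpa3 and Hnrnpa2b1, were chosen after their values were seen. The members and lists were chosen with earlier results of these data known.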

Additional observations from a re-analysis of the deposited data

How the results depend on the processing

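The count of 0 members called also came out with 2 other scalings, 2 other filters, DESeq2, limma-voom, the replicate block, length-adjusted offsets with and without it, the cerebellum term, the sex term, and without each library in turn. It was 1 with the cerebellum term and replicate block together (Lsm11). Among the libraries without cerebellar transcripts, where the KO arm is replicate 2 alone, it was 7 of 62 (11.3%), beside 7.37% of all genes, and these calls describe that library rather than the groups.

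The members' median log2 fold change of 0.09 was 0.0448 with length-adjusted offsets, 0.0393 with these and the replicate block, 0.0536 among libraries with cerebellar transcripts, and 0.0653 to 0.126 without each library in turn. All genes called numbered 199. There were 313 with DESeq2, 566 with the replicate block, 511 with length-adjusted offsets and the block, 535 with the cerebellum term and the block, 129 with the sex term, 1254 among libraries without cerebellar transcripts, and 100 to 305 without each library in turn. Prmt5 passed the threshold with the block (-0.328), with length-adjusted offsets and the block (-0.372) and with the cerebellum term and the block (-0.407). Among libraries without cerebellar transcripts, with KO replicate 2 alone, it was -0.415.

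Some named genes changed sign, none of them called on both sides of 0, and the cause was not tested. Wdr77 (-0.01) was 0.0155 with upper-quartile scaling, 0.0251 with the cerebellum term, 0.0148 with the sex term, 0.00993 and 0.0334 among libraries with and without cerebellar transcripts, and -0.052 to 0.0653 without each library. Snrpg (0.01) was -0.0161 with limma-voom, -0.010 with the cerebellum term, -0.111 with that term and the block, -0.262 among libraries without cerebellar transcripts, and -0.225 to 0.128 without each library. Snrpe (0.05) was -0.0547 with the sex term, -0.0129 among libraries without cerebellar transcripts, and -0.0613 to 0.20 without each library. With length-adjusted offsets, and then with these and the replicate block, Gemin2 was -0.0323 and -0.0263, Snrpg -0.124 and -0.131, Snrpe -0.0467 and -0.0447, Srsf9 -0.11 and -0.114, and Srsf10 0.0305 and 0.025. Srsf9 was -0.10 with the cerebellum term and the block. Without each library in turn, Gemin2 ran from -0.0157 to 0.172, Srsf9 from -0.0901 to 0.154, Srsf10 from -0.0914 to 0.0128 and Srsf11 (0.18) from -0.00279 to 0.31. Among libraries with cerebellar transcripts Srsf2 (0.12) was -0.0459 and Hnrnpa1 (0.21) was -0.0143. At this depth members with few counts such as Snrpg and Lsm10 have wide intervals, and differences within them are not detectable.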
